A study of Mus musculus with 25 samples.

Results

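The Dlx homeobox family was examined in the E14.5 mouse palate through its 6 members, Dlx1 to Dlx6, taken by gene symbol from a table of 37406 genes in which all 6 were listed. Embryos were of the CD1 strain and wild type, and tissue was collected by laser capture microdissection, amplified and sequenced, giving 25 libraries. Anterior and posterior palatal shelves were each divided into a medial and a lateral compartment and, separately, into an oral and a nasal compartment, so that a medial and an oral sample of the same shelf can cover some of the same tissue. Each of the 8 compartments had 3 replicates except the anterior nasal compartment, which had 4, and the study calls these biological replicates without tying them to single embryos. No group carried an engineered allele or received an agent, but alignment names in the study's tables add Tgfbr2 WT for 4 libraries (anterior nasal replicate 4, anterior oral replicate 3 and replicate 1 of posterior nasal and posterior oral, all of sequencing run 175) and ERK2 WT for replicate 1 of posterior medial and posterior lateral. Levels are given as RPKM, read counts scaled by transcript length and by the size of the library, and tests were made on log2(RPKM + 0.1), a scale that understates differences of low genes.

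The vertebrate Dlx genes are relatives of the fly Distal-less gene and encode transcription factors with a homeodomain, the DNA-binding segment encoded by the homeobox. They lie in convergently transcribed pairs whose members share enhancers and are often expressed in overlapping places. In the first pharyngeal arch, from which the palate forms, nested Dlx expression patterns the jaws, with Dlx1 and Dlx2 active in the maxillary and mandibular parts and Dlx5 and Dlx6 mainly in the mandibular part at early stages. Dlx3 and Dlx5 are later expressed in bone-forming cells, where they act on osteoblast genes.

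The pairs were seen in the coordinates deposited with the table, which are of build mm9. Dlx1 (gene ID 13390, chr2:71367502-71372038) and Dlx2 (13392, chr2:71381465-71384811) lay 9426 bases apart. Dlx6 (13396, chr6:6813334-6817970) and Dlx5 (13395, chr6:6827805-6832068) were separated by 9834 bases. Dlx3 (13393, chr11:94981431-94986605) and Dlx4 (13394, chr11:95001761-95007115) had 15155 bases between them. These spans cover the whole genes, exons, introns and untranslated regions included. Of the 8 names searched for noncoding transcripts beside the members, 4 were in the table. Dlx1as overlapped Dlx1 by 3344 bases, A730090H04Rik (Dlx4as) overlapped Dlx4 by 749, Dlx6as1 spanned all 4637 bases of Dlx6, and Dlx6as2 lay inside Dlx6 over 1354 bases. The amplification does not keep the strand as far as the sources used here state, so reads in these overlaps cannot be told apart between sense and antisense.

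The last 60 bases of the 180-base homeobox, which encode the third helix of the homeodomain and its end, are shown for the 6 members because they define the family and show where its members can be told apart. They were read from mouse transcripts of the GENCODE annotation on build GRCm38, in the coding direction, and capitals mark the 25 positions at which the members differ, the other 35 being shared by all 6.
Dlx1: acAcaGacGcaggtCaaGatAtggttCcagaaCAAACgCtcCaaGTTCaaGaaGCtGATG
Dlx2: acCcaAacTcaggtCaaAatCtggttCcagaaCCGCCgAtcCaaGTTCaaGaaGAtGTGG
Dlx3: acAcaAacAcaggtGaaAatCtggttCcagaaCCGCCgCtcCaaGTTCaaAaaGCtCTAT
Dlx4: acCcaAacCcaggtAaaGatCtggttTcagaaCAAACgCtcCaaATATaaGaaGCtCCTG
Dlx5: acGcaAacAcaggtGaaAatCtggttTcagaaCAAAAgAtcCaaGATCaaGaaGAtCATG
Dlx6: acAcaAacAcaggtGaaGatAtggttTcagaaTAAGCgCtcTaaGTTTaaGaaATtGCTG
Over the whole homeobox, identity ranged from 66.1% for Dlx3 and Dlx6 to 81.7% for Dlx2 and Dlx3 among the 15 pairs. The longest stretch that any 2 of the 6 transcripts had in common was 23 bases. No pair shared a run of 50 bases, the read length, so a read without mismatches from these transcripts could belong to only 1 member.

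Depth was read from the steps between low values, which implied 1639000 to 6556000 counted reads per library with a median of 3269000. At that median, 1 read equals about 0.079 RPKM for Dlx1, 0.124 for Dlx2, 0.118 for Dlx3, 0.11 for Dlx4 and 0.218 for Dlx5, so values below about 0.5 RPKM rest on very few reads. These are estimates, since 155 of 341 genes of annotated length gave the chosen total. The lengths used gave whole reads for 72.7% (Dlx1) to 92.9% (Dlx5) of the values judged. The study states a far higher average number of reads per sample, and that gap was not examined. Posterior medial replicate 2 stood apart, with 12935 genes above 0 against 16330 to 20605 in the others, and anterior oral replicate 1 was the shallowest library. Correlations between replicates across genes were as low as 0.612 in posterior medial and 0.661 in anterior oral, against at least 0.783 in the other 6 compartments. The 8 palate mesenchyme markers (among them Prrx1, Pdgfra and Osr2) were above 0 in all compartments, with summed levels of 528.53 to 1044.03 RPKM, and the 14 epithelial markers summed to 29.56 to 198.07 RPKM, so epithelium was present in the captured tissue.

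Among the members, Dlx1 and Dlx5 gave the highest levels, and which of them led depended on the compartment. RPKM is scaled by length, which lets members be set side by side within a library. It does not correct for unequal amplification of genes or for reads of overlapping antisense transcripts. Dlx5 was the highest member in all 10 libraries of anterior medial, anterior lateral and anterior nasal and in all 3 of posterior nasal, while Dlx1 was the highest in all 9 libraries of posterior medial, posterior lateral and posterior oral. Anterior oral was divided, with Dlx1 highest in 2 libraries and Dlx5 in 1. The summed level of the 6 members was lowest in anterior oral, anterior medial and anterior lateral, at 6.61 to 15.13 RPKM, and highest in posterior nasal, at 60.7, 70.16 and 138.19 RPKM. Dlx1 and Dlx2 together made up a median of 90.2% of that sum in posterior medial, 68.5% in posterior lateral and 67.9% in posterior oral, but 21.3% in posterior nasal and 5.8% in anterior nasal. The share ranged from 51.1 to 99.4% in posterior medial, so it overlapped posterior lateral (62.7 to 73.2%) and posterior oral (55.0 to 71.8%). It was 9.1 to 28.6% in posterior nasal and 0.8 to 11.4% in anterior nasal. Dlx1 exceeded Dlx2 in 24 of 25 libraries, the exception being anterior nasal replicate 1, and Dlx5 exceeded Dlx6 in all 25.

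**Figure D1:**
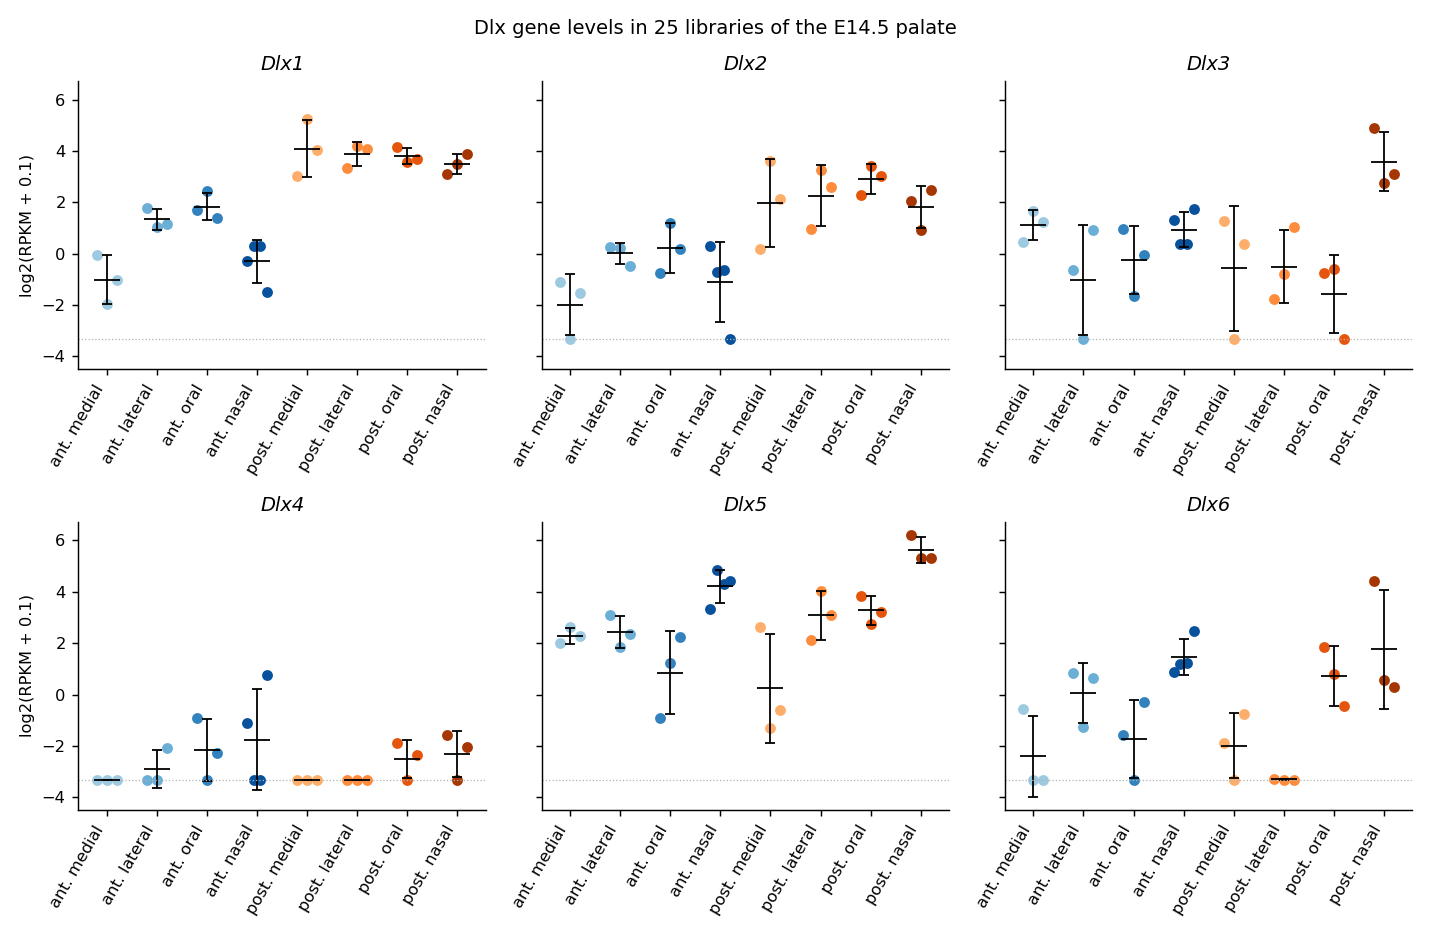
Level of each Dlx gene, as log2(RPKM + 0.1), in 3 libraries of each compartment (4 of anterior nasal). Points are libraries, horizontal bars are means and whiskers are SD, and the dotted line marks 0 RPKM. The 12 posterior libraries lie above all 13 anterior ones for Dlx1, and the 3 posterior nasal libraries are the highest of all 25 for Dlx3 and Dlx5.

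Differences among all 8 compartments were tested first, with a moderated F test in limma over 11913 genes, of which 4.42% passed an adjusted p of 0.05. Of the 6 members, 4 passed the expression minimum and 3 of these varied among compartments: Dlx1 (adjusted p = 3.41e-06), Dlx5 (adjusted p = 0.00301) and Dlx2 (adjusted p = 0.00612). Dlx3 did not pass (adjusted p = 0.105). It met the minimum through the 3 posterior nasal libraries alone, and Dlx2 met it through posterior libraries alone. With 1 library left out and the same genes tested, Dlx3 passed only without posterior medial replicate 2 (adjusted p = 0.0299). Its adjusted p reached 0.424 without posterior nasal replicate 1. The Dlx2 call was lost with a pseudocount of 0.01 (adjusted p = 0.0593). Dlx4 and Dlx6 were below the minimum. With no minimum, Dlx6 had an adjusted p of 0.0166 and Dlx4 of 0.831, and 2.89% of genes were called.

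Dlx1, which patterns the upper jaw together with Dlx2, was higher in the posterior than the anterior palate. In posterior libraries it ranged from 7.99 to 37.8 RPKM with a median of 13.8 (n = 12), and in anterior libraries from 0.157 to 5.31 with a median of 1.14 (n = 13). The groups did not overlap. Posterior exceeded anterior by 3.41 ± 0.40 on the log2 scale (SE), or 10.6-fold, with an adjusted p of 2.38e-06. This fit counted the 12 and 13 libraries as independent and had no term for compartment. Its SE and p-value make no allowance for tissue or embryos that libraries may share. Neither do the F test above and the later posterior against anterior values over all libraries. The comparison tested 8608 genes, of which 3.32% were called and 1.66% were called as higher in posterior, and of the 2 members that passed its minimum of 10 RPKM in 6 libraries Dlx1 was the called one. Among all 22399 genes above 0, posterior and anterior libraries did not overlap for 0.129%, and Dlx1 was the one member among these. Fewer cells that express a gene and less RNA in each cell cannot be told apart in such samples. Dlx1 passed the minimum through posterior libraries alone, and with no minimum its adjusted p was 8.92e-06. Leaving out any single library kept the difference between 3.22 and 3.58.

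Within each compartment the Dlx1 libraries of the posterior palate also lay above those of the anterior palate without overlap. Posterior medial libraries had 7.99, 37.8 and 16.3 RPKM, and anterior medial ones 0.866, 0.157 and 0.397. The difference there was the largest of the 4 compartments, 5.11 ± 0.72 (log2, SE), but its adjusted p was 0.122, in a comparison in which 0.106% of 10359 genes were called. Dlx1 passed the minimum through posterior medial libraries alone, and with no minimum its adjusted p was 0.182. Posterior medial replicate 2 had the highest value. Without it, and with the same genes tested, the difference was 4.53 and its adjusted p 0.0237. With the minimum applied anew, Dlx1 no longer passed it without that library and was not tested.

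Lateral libraries had 10.2, 18.3 and 17.0 RPKM of Dlx1 in the posterior palate and 3.38, 1.97 and 2.15 in the anterior palate. This difference of 2.55 ± 0.29 was called (adjusted p = 0.0146), where 1.39% of 10452 genes were. The call was lost without anterior lateral replicate 2 (adjusted p = 0.0739), anterior lateral replicate 3 (0.097) or posterior lateral replicate 3 (0.0612), although the difference stayed at 2.40 to 2.46. It was also lost with no minimum (0.0594), Dlx1 having passed through the posterior libraries alone, and with the run in the fit (0.194).

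Posterior nasal libraries had 8.43, 11.1 and 14.6 RPKM of Dlx1 against 0.714, 1.13, 1.14 and 0.253 in anterior nasal ones, a difference of 3.79 ± 0.44 (adjusted p = 0.00387). In that comparison 2.21% of 10629 genes were called, and Dlx1, which passed the minimum through posterior nasal libraries alone, had an adjusted p of 0.0452 with none. Oral libraries had 17.8, 11.8 and 13.01 RPKM in posterior and 3.14, 5.31 and 2.51 in anterior palate, a difference of 1.98 ± 0.36 with an adjusted p of 0.163, where 0.179% of 10587 genes were called. The 4 differences therefore pointed the same way, and 2 of them passed the test. Groups did not overlap for 10.7% of all genes above 0 in medial, 15.6% in lateral and 8.16% in oral, and with posterior higher for 8.33% in nasal.

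Cartilage markers, a list of 6, moved with Dlx1 in part of these comparisons. Their summed level did not overlap in lateral, at 47.39 to 77.69 RPKM in posterior and 21.49 to 22.9 in anterior, or in oral, at 66.43 to 108.91 and 20.14 to 49.78. It overlapped in medial, at 64.29 to 81.23 and 67.78 to 109.89, and in nasal, at 93.51 to 150.09 and 58.46 to 101.69. None of the 6 was at 0 in any compartment. The 6 endothelial markers summed to 120.49 to 143.63 in posterior lateral and 146.72 to 169.58 in anterior lateral libraries, and the 8 palate mesenchyme markers to 598.3 to 783.85 in posterior nasal and 830.44 to 1044.03 in anterior nasal ones, both without overlap. The part of these in the Dlx differences between posterior and anterior was not tested.

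Across the shelf, from medial to lateral or nasal to oral, no Dlx1 difference passed the test. Its 8 compartment means fell in the order posterior medial (20.7 RPKM), posterior lateral (15.2), posterior oral (14.2), posterior nasal (11.4), anterior oral (3.65), anterior lateral (2.50), anterior nasal (0.808) and anterior medial (0.473). The ranges of neighbours in this order overlapped except at 2 steps, from posterior nasal to anterior oral and from anterior lateral to anterior nasal. Anterior lateral libraries lay above anterior medial ones and anterior oral libraries above anterior nasal ones, both without overlap, but Dlx1 was below the minimum in these comparisons. With no minimum these differences were 2.35 ± 0.52 (adjusted p = 0.152) and 2.14 ± 0.54 (adjusted p = 0.895), where 0.841% and 0% of genes were called. Groups did not overlap for 18.8% of all genes above 0 between anterior lateral and medial and for 3.62% between anterior oral and nasal. The first of these held 2 members, Dlx1 and Dlx2, and the other 3, Dlx1, Dlx5 and Dlx6. In the posterior palate the lateral minus medial difference was -0.21 ± 0.60 (adjusted p = 0.962) and the oral minus nasal difference 0.33 ± 0.27 (adjusted p = 0.999, 95% interval -0.30 to 0.95). The change of the oral minus nasal difference from anterior to posterior was -1.81 ± 0.62 (unadjusted p = 0.0126, adjusted p = 0.9), and that of the lateral minus medial difference -2.56 ± 0.84 (unadjusted p = 0.0119, adjusted p = 0.964), so neither passed. In these interaction tests 0.035% of 11442 and 0.00902% of 11089 genes were called, 387 (3.38%) and 373 (3.36%) had an unadjusted p under 0.05 by limma, and none of the members was called.

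Dlx2, the partner of Dlx1 and a gene required for development of upper jaw structures, differed in the same direction at a lower level. Posterior libraries ranged from 1.04 to 12.2 RPKM with a median of 5.14, and anterior libraries from 0 to 2.20 with a median of 0.537. Here the groups overlapped, through posterior medial replicate 1 at 1.04, and the posterior lateral and posterior nasal libraries at 1.84 and 1.78. Dlx2 did not pass the minimum of 10 RPKM in 6 libraries. With no minimum, posterior exceeded anterior by 2.99 ± 0.47 (log2, SE; adjusted p = 0.000374), where 2.17% of 22399 genes were called.

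In each compartment, posterior Dlx2 values exceeded anterior ones without overlap, as they did for 8.33% of all genes above 0 in nasal, and groups of either order did not overlap for 10.7% in medial, 15.6% in lateral and 8.16% in oral. Medial libraries had 1.04, 12.2 and 4.29 RPKM in posterior and 0.371, 0 and 0.249 in anterior palate. Lateral libraries had 1.84, 9.54 and 5.91 against 1.10, 1.08 and 0.628. Oral libraries had 4.81, 10.7 and 8.16 against 0.493, 2.20 and 1.05, and nasal ones 4.10, 1.78 and 5.47 against 1.12, 0.505, 0.537 and 0. With no minimum the 4 differences were between 2.26 ± 0.63 in lateral and 3.96 ± 1.03 in medial, with adjusted p-values of 0.291 to 0.614, so none was called in the single compartments, where this fit called 0.0257% of genes in medial, 0.394% in lateral, 0% in oral and 0.328% in nasal. Posterior oral libraries were 1.10 ± 0.44 above posterior nasal ones (unadjusted p = 0.0361, adjusted p = 0.531).

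Dlx1 and Dlx2 varied together over the 25 libraries, with Pearson's r of 0.92 on the log2 scale. The search for alike genes was limited to those reaching 5 RPKM in 3 or more libraries, so lower genes were not ranked. Within this set Dlx2 was the gene most like Dlx1, and Dlx1 the gene most like Dlx2. After it, Dlx1 was most like Sim2 (r = 0.88) and Wnt11 (r = 0.872), and Dlx2 most like Igfbp5 (r = 0.834) and Gria1 (r = 0.82). These correlations are descriptions over libraries that share runs and include the anterior to posterior difference. Other pairs of members were less alike, at 0.58 for Dlx5 with Dlx6, 0.53 for Dlx3 with Dlx5, 0.52 for Dlx4 with Dlx6 and 0.35 for Dlx3 with Dlx4.

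Since this pair varied together, the 250 bases before each start site are shown, from the RefSeq promoter table of build GRCm38, where Dlx1 was at chr2:71529195-71529444 on the plus strand and Dlx2 at chr2:71546755-71547004 on the minus strand. Entries for 2 of the 6 members were found.
Dlx1: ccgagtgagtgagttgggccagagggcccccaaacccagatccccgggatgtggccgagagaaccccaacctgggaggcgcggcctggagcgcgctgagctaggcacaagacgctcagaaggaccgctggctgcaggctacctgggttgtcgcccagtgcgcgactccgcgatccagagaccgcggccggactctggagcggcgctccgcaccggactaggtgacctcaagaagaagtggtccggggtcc
Dlx2: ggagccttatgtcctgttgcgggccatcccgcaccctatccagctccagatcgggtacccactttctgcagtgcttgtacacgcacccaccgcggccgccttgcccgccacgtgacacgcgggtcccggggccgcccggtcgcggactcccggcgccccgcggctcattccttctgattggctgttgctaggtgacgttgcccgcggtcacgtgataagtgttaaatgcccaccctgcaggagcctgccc
The letters TAATTA, a core sequence that homeodomains can bind and that reads the same on both strands, occurred in neither window and would have been set in capitals. Among 32851 windows of this length in the table, 4.84% held them. The GC content of the windows was 68.0% for Dlx1 and 66.4% for Dlx2, against a median of 52.4% over all windows.

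Dlx1as, the antisense transcript of the pair, was at 0 in 10 of 13 anterior libraries and reached at most 0.346 RPKM there, and in the posterior palate it lay between 0.388 and 1.79 RPKM in 11 of 12 libraries, posterior medial replicate 2 being at 0. Like the other 3 noncoding neighbours, it passed no minimum. In the fit with no minimum, 1 of these 4 was called between posterior and anterior, where 2.17% of genes were. Among the 8 compartments 2 of the 4 were called, where 2.89% of genes were. These counts are for the 4 as a list. Dlx1 itself was far higher, and the part of these values that comes from Dlx1 reads in the 3344 shared bases was not tested.

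**Figure D2:**
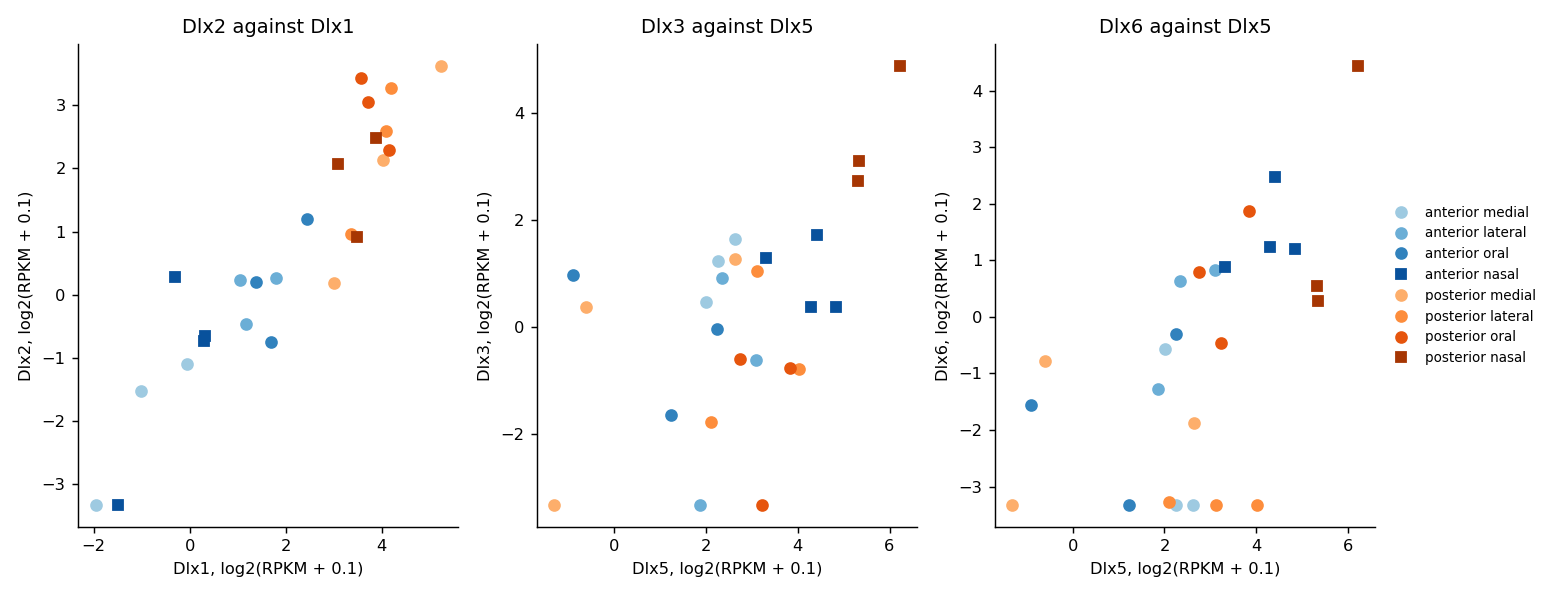
Level of Dlx2 against Dlx1, Dlx3 against Dlx5 and Dlx6 against Dlx5, as log2(RPKM + 0.1), in each of the 25 libraries; colours give the compartment and squares the nasal compartments. Dlx1 and Dlx2 follow each other (r = 0.92), and the 3 posterior nasal libraries hold the highest Dlx5 and Dlx3 values.

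Dlx5, which acts in lower jaw identity and in osteoblasts, was highest in the nasal compartments. Posterior nasal libraries had 74.4, 39.8 and 40.3 RPKM, the highest values of any member in any library, and posterior oral ones had 14.2, 6.63 and 9.26. No oral value reached a nasal one. The oral minus nasal difference was -2.35 ± 0.35 (log2, SE), with nasal 5.11-fold higher and an adjusted p of 0.0227. In this comparison 1.25% of 10586 genes were called, 0.661% as lower in oral, and 2 of the 4 members that passed the minimum, Dlx5 and Dlx3, were among them. Groups did not overlap for 10.9% of all genes above 0, and for the same 2 members.

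In the anterior palate the nasal libraries had 9.87, 28.4, 19.5 and 21.2 RPKM of Dlx5, and the oral ones 0.434, 2.24 and 4.65. These again did not overlap, as for 3.62% of all genes above 0. The difference was -3.36 ± 0.70, with an unadjusted p of 0.00128 and an adjusted p of 0.473, and Dlx5 passed the minimum through nasal libraries alone. No gene of 10684 was called there by limma (318, or 2.98%, had an unadjusted p under 0.05). The lowest oral value came from anterior oral replicate 1, the shallowest library, and without it the difference was -2.48 (adjusted p = 0.271). Dlx5 passed in a fit of all 25 libraries that included the sequencing run, at -3.56 (adjusted p = 0.0455). The 6 cartilage markers also differed without overlap, summing to 58.46 to 101.69 RPKM in anterior nasal and 20.14 to 49.78 in anterior oral, and their part in the Dlx5 difference was not tested. Whether the oral minus nasal difference itself changed from anterior to posterior was not shown (1.01 ± 0.91, adjusted p = 1).

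Along the anterior-posterior axis Dlx5 differed less regularly than Dlx1. Its medians were 8.91 RPKM in posterior and 4.97 in anterior libraries, the ranges (0.303 to 74.4 and 0.434 to 28.4) overlapped, and the difference of 0.47 ± 0.71 had an adjusted p of 0.823. Posterior nasal and posterior oral libraries exceeded their anterior counterparts without overlap, by 1.41 ± 0.38 (adjusted p = 0.0995) and 2.42 ± 0.75 (adjusted p = 0.805), and neither was called. Among all genes above 0, groups did not overlap for 8.16% in oral, and with posterior higher for 8.33% in nasal. In oral, Dlx5 passed the minimum through posterior libraries alone, and with no minimum its adjusted p was 0.871. Posterior lateral libraries (4.20, 16.1 and 8.55 RPKM) overlapped anterior lateral ones (8.42, 3.55 and 4.97). In the medial compartments the order was the opposite for 2 of 3 libraries, with 6.14, 0.303 and 0.553 RPKM in posterior and 3.92, 6.07 and 4.69 in anterior medial. Dlx5 was below the minimum in that comparison, and with none the difference was -2.06 ± 1.05 (adjusted p = 0.824).

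Between posterior lateral and posterior medial Dlx5 differed by 2.84 ± 1.09, with an unadjusted p of 0.0384 and an adjusted p of 0.957, and the groups overlapped through posterior medial replicate 1. All members overlapped there, as against 6.59% of all genes above 0 that did not. No gene of 10324 was called by limma in this comparison (159, or 1.54%, had an unadjusted p under 0.05). The order of the Dlx5 means was posterior nasal (51.5 RPKM), anterior nasal (19.8), posterior oral (10.04), posterior lateral (9.63), anterior lateral (5.65), anterior medial (4.89), anterior oral (2.44) and posterior medial (2.33). Only the step from posterior nasal to anterior nasal separated neighbours whose ranges did not overlap.

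Dlx6, the partner of Dlx5, was lower and more variable. Posterior nasal libraries had 21.5, 1.36 and 1.12 RPKM, so that the mean of 8.01 ± 11.7 (SD, n = 3) rests on replicate 1. Posterior oral ones had 3.55, 1.63 and 0.628 and overlapped them. Anterior nasal libraries had 1.74, 2.20, 2.26 and 5.42 RPKM, all above the anterior oral ones at 0.239, 0 and 0.712. Groups did not overlap there for 3.62% of all genes above 0. With no minimum the anterior oral minus nasal difference was -3.17 ± 0.75 (adjusted p = 0.845) and the posterior one -1.02 ± 1.22 (adjusted p = 0.946).

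Dlx6 was not detectable in posterior lateral tissue, at 0.003, 0 and 0 RPKM, whereas anterior lateral libraries had 1.68, 0.311 and 1.45. The posterior minus anterior difference of -3.37 ± 0.58 had an adjusted p of 0.118 with no minimum, and it is not given as a fold since the posterior values are at the floor. Dlx5 was not low in the same posterior lateral libraries. Medial libraries had at most 0.571 RPKM of Dlx6.

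The antisense transcript Dlx6as1 was highest in posterior nasal, with 3.18, 1.84 and 1.37 RPKM, where no other library exceeded 0.983. Unlike Dlx6, it was above 0 in posterior lateral, at 0.501, 0.576 and 0.983 RPKM. Dlx6as2, which lies inside Dlx6, was above 0 in 5 libraries and highest in posterior nasal replicate 1 at 2.66 RPKM, the library with the highest Dlx6. How many of the Dlx6 reads stem from these transcripts was not tested.

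Dlx3, which acts in hair, tooth, placenta and bone, was highest in the posterior nasal compartment. Its libraries there had 29.5, 6.58 and 8.58 RPKM, and none of the other 22 libraries exceeded 3.22. Posterior oral libraries had 0.491, 0.559 and 0. The oral minus nasal difference was -5.14 ± 0.79 (log2, SE), with an adjusted p of 0.0256. Its size depends on the 0.1 added to the low oral values, since adding 1 gave -3.30 and adding 0.01 gave -6.39. Dlx3 passed the minimum through the 3 posterior nasal libraries alone, so that a gene at this level could enter the test only by being high there, and with no minimum its adjusted p was 0.142. Posterior nasal exceeded anterior nasal, at 2.37, 1.20, 1.19 and 3.22 RPKM, by 2.64 ± 0.54 (6.21-fold, adjusted p = 0.0457), and Dlx3 was the other member called there beside Dlx1, where 1.1% of genes were called as higher in posterior. It again entered through posterior nasal alone, and with no minimum its adjusted p was 0.191. Both comparisons use the same posterior nasal libraries. In the anterior palate the oral and nasal libraries overlapped, and the difference with no minimum was -1.18 ± 0.68 (adjusted p = 1). The change of the oral minus nasal difference along the axis was -3.97 ± 1.14, with an unadjusted p of 0.00461 and an adjusted p of 0.539. Outside posterior nasal the means lay between 0.35 and 2.20 RPKM, and all neighbours in their order overlapped.

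The Dlx3 and Dlx5 calls between posterior oral and nasal lay close to the threshold. With no minimum, where 0.0532% of genes were called, their adjusted p-values were 0.142 and 0.133, and with the run in the fit 0.15 and 0.277. Dlx3 also lost its call with a pseudocount of 0.01 (0.106) or a mean-variance trend (0.0572), and Dlx5 in the fit of all 25 libraries by compartment (0.397). With 1 library left out and the same genes tested, the Dlx3 difference stayed between -5.62 and -4.26 and lost its call without posterior oral replicate 2 (adjusted p = 0.0523), posterior nasal replicate 1 (0.0603) or posterior nasal replicate 3 (0.0714). The Dlx5 difference stayed between -2.64 and -2.06 and lost its call without each of these (0.0651, 0.058 and 0.0647) and without posterior oral replicate 3 (0.077). Between posterior and anterior nasal, Dlx3 kept its call only when anterior nasal replicate 4 was left out, and it was lost without anterior nasal replicate 1, 2 or 3 (adjusted p = 0.0815, 0.0895 and 0.0924) and without posterior nasal replicate 1, 2 or 3 (0.117, 0.0511 and 0.106), at differences of 1.98 to 3.06. It was lost as well with the run in the fit (0.956), with all 25 libraries by compartment (0.322), with quantile normalization (0.106) and with a pseudocount of 0.01 (0.0521).

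Dlx4, known from the placenta, was hardly detected. It was at 0 in 16 of 25 libraries and above 1 RPKM in 1, anterior nasal replicate 4, at 1.58. All 9 libraries of anterior medial, posterior medial and posterior lateral were at 0. It passed no minimum, and no difference was detectable at this depth, the values between compartments in the fit with no minimum being -0.56 to 0.42 (log2). A730090H04Rik, which overlaps its end, reached 2.93 RPKM in anterior oral replicate 1, a library with 0.435 RPKM of Dlx4.

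Further differences of the members, given on the log2 scale with SE, were not called. Between lateral and medial in the posterior palate Dlx2 differed by 0.29 ± 0.99 (adjusted p = 0.967), and the changes of the lateral minus medial difference along the axis were -1.70 ± 1.27 for Dlx2 and 2.71 ± 1.25 for Dlx5 (both adjusted p = 0.964). The change of the Dlx2 oral minus nasal difference was -0.22 ± 1.09 (adjusted p = 1), and Dlx5 was 0.65 ± 0.52 higher in posterior than anterior lateral (adjusted p = 0.718). For the differences that follow the genes were below the minimum, and values are from the fit with none. Between anterior lateral and medial they were 1.99 ± 0.63 for Dlx2, -2.13 ± 1.10 for Dlx3, 0.14 ± 0.35 for Dlx5 and 2.47 ± 0.97 for Dlx6, with adjusted p-values of 0.287 to 0.917. Dlx2 was 1.32 ± 0.90 higher in anterior oral than nasal (adjusted p = 1). Dlx3 and Dlx6 differed by -0.02 ± 0.78 and -0.21 ± 0.84 between all posterior and all anterior libraries, by -1.68 ± 1.22 and 0.41 ± 1.00 in medial and by -1.33 ± 0.97 and 2.46 ± 0.92 in oral. Dlx3 differed by 0.51 ± 1.26 in lateral, Dlx6 by 0.31 ± 1.04 in nasal, and the 2 genes by 0.06 ± 1.35 and -1.31 ± 0.67 between posterior lateral and medial.

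**Figure D3:**
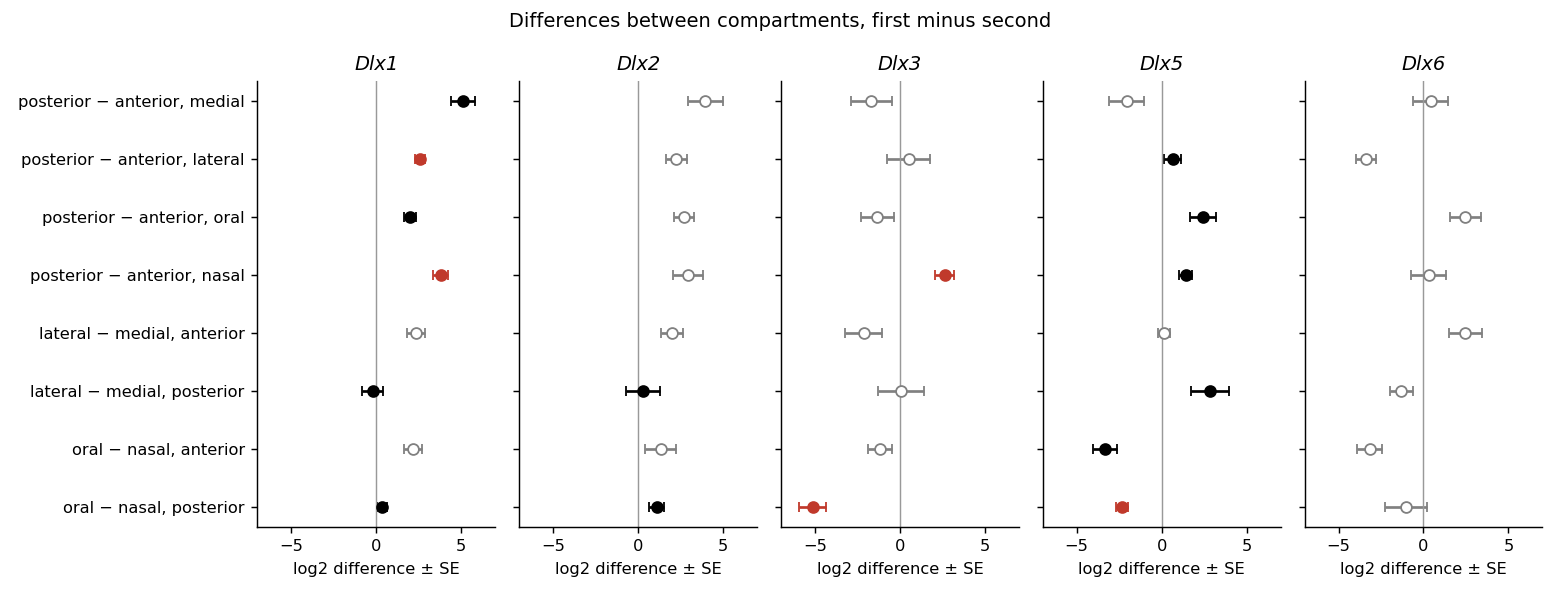
Log2 differences (first minus second compartment) with SE of 5 members in the 8 comparisons of compartment pairs, each group of 3 libraries (anterior nasal 4); filled red points passed an adjusted p of 0.05, filled black points did not, and open grey points were below the expression minimum and are from the fit with no minimum. Dlx1 lies to the right of 0 in all 4 posterior minus anterior comparisons, and Dlx3 (-5.14) and Dlx5 (-2.35) lie to the left in posterior oral minus nasal.

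Sequencing run and compartment were partly mixed, since all 3 anterior medial libraries came from run 366 and only some pairs of compartments share a run. Where they do, the directions could be read within a run, from 1 to 3 libraries a side, with no test. For Dlx1, posterior minus anterior was 5.65 in medial (run 366), 2.98 in lateral (run 391), 2.77 in oral and 4.595 in nasal (both run 175). For Dlx5, oral minus nasal was -2.38 (run 175) and -2.33 (run 366) in the posterior palate, and -2.16, -4.98 and -3.07 in the anterior palate (runs 175, 297 and 324). For Dlx3 in the posterior palate it was -5.64 (run 175) and -4.70 (run 366). Each of these within-run differences had the sign of the pooled value. Some of other members and comparisons, none of them called, did not. In run 297, anterior oral minus nasal was -0.54 for Dlx2 and 0.14 for Dlx3, against pooled values of 1.32 and -1.18. In run 391, posterior minus anterior lateral was -0.78 for Dlx3, against 0.51. Run 175 held posterior nasal replicate 1, the library with the highest Dlx3, Dlx5, Dlx6, Dlx6as1 and Dlx6as2, which also carried the Tgfbr2 WT name and was the deepest of its compartment at 6072000 reads, and the part of these in its values was not tested.

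Bone-forming genes, a list of 20 of which 19 were in the table, were lower in posterior oral than posterior nasal together with Dlx3 and Dlx5. The list was drawn up with results of these data known. Of the 19, 14 passed the minimum, 9 of them were called as lower in oral and none as higher, and Panx3 and Smpd3 passed through nasal libraries alone. The count is thus a description and not independent evidence of a direction. Over the 18 that were above 0 in either compartment, with no minimum, the median difference was -1.41 on the log2 scale against 0.03 over all 20679 genes, and 1 of them was called. With the run in the fit 2 were called, and with all 25 libraries by compartment 4. The 3 largest were Ibsp, a matrix protein of bone, at -6.22 ± 1.00 (adjusted p = 0.0284), Panx3, a channel protein of osteoblasts and chondrocytes, at -5.21 ± 0.67 (adjusted p = 0.0143), and Smpd3, a sphingomyelinase needed for bone mineral, at -3.84 ± 0.29 (adjusted p = 0.00175). Sp7, the osteoblast transcription factor that Dlx5 is known to act upstream of, fell by 3.08 ± 0.30 (adjusted p = 0.0046), and Runx2 fell by 1.18 ± 0.21 (adjusted p = 0.0419). Col1a1, Col1a2, Sparc and Atf4 were among the 5 not called, at -0.19 to -0.33. With the same genes tested, the count fell to 4 without posterior nasal replicate 3, and to 5 without posterior nasal replicate 1 or posterior oral replicate 3. With the minimum applied anew it was 3 to 7 without 1 library.

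Between posterior and anterior nasal, 7 of 14 tested bone-forming genes were higher in posterior and none lower, Panx3 and Smpd3 having passed through posterior nasal libraries alone. With no minimum, the median of the 18 above 0 was 1.22 against -0.12 over all 21933 genes and 3 were called. None was called with the run in the fit, and 2 with the replicate block. Panx3 (4.81 ± 0.48, adjusted p = 0.00206), Ibsp (4.20 ± 0.70, adjusted p = 0.0203) and Sp7 (4.05 ± 0.42, adjusted p = 0.00215) were the 3 largest. With the same genes tested this count fell to 3 without posterior nasal replicate 1 or 3 and to 4 without replicate 2, and with the minimum applied anew it ranged from 1 to 8 without 1 library. From anterior medial to anterior lateral, where the Dlx5 means were 4.89 and 5.65 RPKM, Runx2 fell by 1.54 ± 0.25 (adjusted p = 0.0248) and Tcf7 fell by 1.501 ± 0.24 (adjusted p = 0.0205), 2 of 10 tested. Alike genes over the 25 libraries were again sought only among those reaching 5 RPKM in 3 or more libraries. Sox6 (r = 0.839), Sp7 (r = 0.828) and Cmya5 (r = 0.816) were most like Dlx5. Those most like Dlx6 were Ppp1r35 (r = 0.636), Aldoc (r = 0.635) and Aldh1a7 (r = 0.609). Slc13a5 (r = 0.795), Slc8a3 (r = 0.788) and Runx3 (r = 0.786) were most like Dlx3. Sp7 means were 82.8 ± 25.96 RPKM in posterior nasal (SD, n = 3), 19.0 ± 14.8 in posterior lateral and 9.57 ± 2.15 in posterior oral.

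Among markers of 6 other cell types, the endothelial ones separated the posterior oral and nasal libraries. The 14 epithelial markers summed to 43.43 to 79.69 RPKM in nasal and 29.91 to 51.85 in oral, with none at 0 in either. The 6 cartilage markers summed to 93.51 to 150.09 and 66.43 to 108.91, and the 6 endothelial markers to 56.77 to 85.35 and 128.46 to 185.74, without overlap in the last. The nerve markers (44.81 to 70.51 in nasal and 37.9 to 47.68 in oral), skeletal muscle markers (26.2 to 54.48 and 33.32 to 52.1) and blood markers (153.9 to 392.88 and 260.81 to 515.71) overlapped, as did epithelium and cartilage. None of these sums was tested, and their part in the Dlx3 and Dlx5 differences was not tested.

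**Figure D4:**
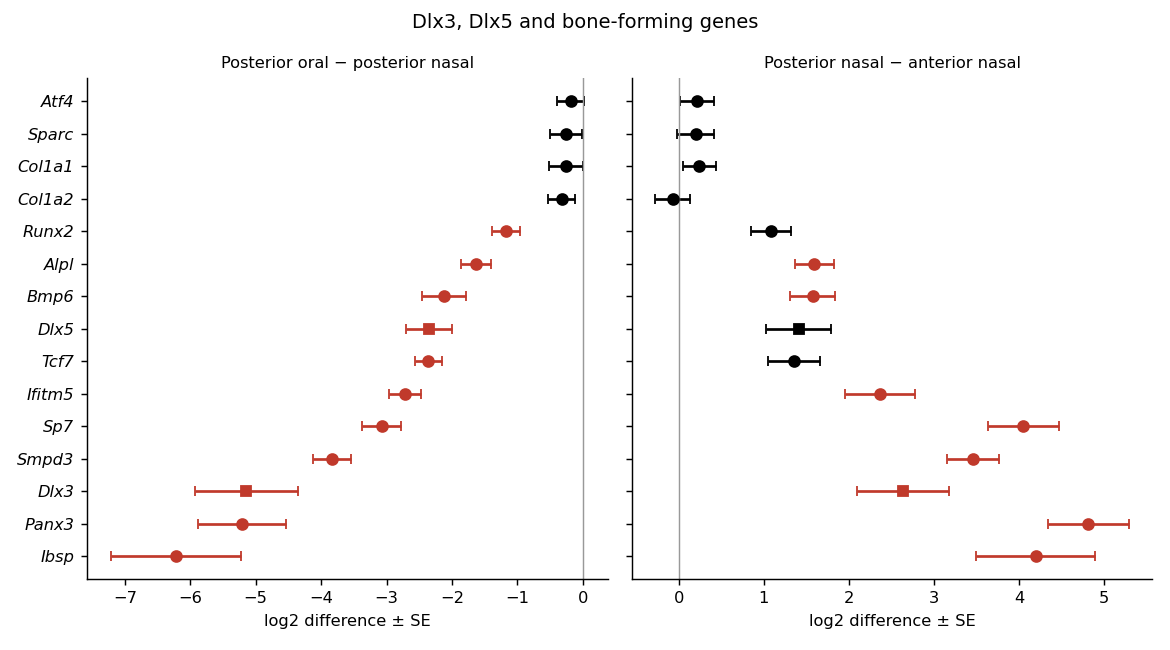
Log2 differences with SE of Dlx3 and Dlx5 (squares) and of 13 of the 14 tested bone-forming genes (circles), posterior oral minus posterior nasal (3 libraries each) on the left and posterior nasal (3) minus anterior nasal (4) on the right; red marks an adjusted p under 0.05. On the left 9 of the 13 are called and lower in oral, and on the right 7 are called and higher in posterior.

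Other genes known to work around the Dlx family were taken in 4 further lists. Of the 22 arch patterning genes, 13 were tested between posterior and anterior, and 1 was higher and 2 were lower in posterior. Barx1, a homeobox gene of teeth and jaws, was higher by 4.72 ± 0.48 (adjusted p = 2.28e-07), Msx1, a homeobox gene needed for growth of the anterior palate, fell by 4.45 ± 0.67 (adjusted p = 8.9e-05), and Ednra, the receptor through which endothelin acts on Dlx5 and Dlx6 in the lower jaw, fell by 1.03 ± 0.25 (adjusted p = 0.019). From anterior medial to anterior lateral, where 2.51% of 10427 genes were called and no Dlx member passed the minimum, 2 of 13 tested arch genes were higher and 2 lower in lateral. Gsc, a target in the endothelin pathway, fell by 3.54 ± 0.37 (adjusted p = 0.00447) and Nr2f1 by 0.78 ± 0.11 (adjusted p = 0.0155), while Msx1 was 1.90 ± 0.33 (adjusted p = 0.031) and Pou3f3 1.76 ± 0.21 (adjusted p = 0.00693) higher. Cartilage markers summed to 21.49 to 22.9 RPKM in anterior lateral and 67.78 to 109.89 in anterior medial. Nerve markers summed to 22.14 to 27.3 and 40.05 to 63.53, and endothelial ones to 146.72 to 169.58 and 102.04 to 125.86, all without overlap. Sums of epithelial, skeletal muscle, blood and palate mesenchyme markers overlapped. The part of these in the differences between anterior lateral and medial was not tested. Gsc was also higher in posterior than anterior lateral by 2.75 ± 0.41 (adjusted p = 0.0305). In posterior oral against nasal none of 12 arch genes was called.

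Among 14 signalling genes, Fgf10, a mesenchymal growth factor, was 2.04 ± 0.27 higher in posterior oral than posterior nasal (adjusted p = 0.0155), opposite in sign to Dlx3 and Dlx5, and its receptor Fgfr2 fell by 1.36 ± 0.23 from nasal to oral (adjusted p = 0.0345). These were 2 of 13 tested. With no minimum the median of the 14 was 0.15 against 0.03 over all genes. Along the axis Wnt5a fell by 1.99 ± 0.23 (adjusted p = 1.59e-06) and Bmp2 by 0.73 ± 0.15 (adjusted p = 0.0039) in posterior against anterior, 2 of 10 tested, the median of the 14 with no minimum being 0.01 against -0.09 over all genes. Of 6 GABA genes that Dlx factors control in forebrain neurons, 2 passed the minimum, and Nrp2 fell by 1.53 ± 0.28 from posterior nasal to oral (adjusted p = 0.0437). Of 9 homeodomain partner genes, 8 were tested in the comparisons of compartments, and none was called in the oral and nasal or posterior and anterior ones.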

How the data were processed

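The authors deposited RPKM values for 25 libraries in 1 table, from 50-base single-end reads aligned to mm9 (TopHat, per the labels) without duplicate and multiply aligned reads. Depth was recovered from steps of low values. For 299 of 300 library pairs the ratio of depths matched the one reached through 1 library taken as reference. Pairs that include this reference library match by construction.

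With limma 3.58.1 (R 4.3.3), compartments were compared after adding 0.1 to each RPKM and taking log2. Genes needed 5 RPKM in 3 compared libraries, or 10 RPKM in 6 for posterior against anterior. Calls were made at a Benjamini-Hochberg adjusted p under 0.05 over all genes tested. The fits were tested on simulated data. Alternatives were other pseudocounts, scalings and minimums, a mean-variance trend, a replicate block, all 25 libraries with or without the run, and left-out libraries. Fits without single libraries on an unchanged gene set, the fit without both libraries that stood apart and the bone-forming counts were added after seeing the data. Only in anterior oral and nasal did every pair of same-numbered libraries have a correlation of deviations over 0.1 (0.13 to 0.239), which is low. Differently numbered libraries were not compared. The runs differed for replicate 2 (324 in oral, 297 in nasal) and replicate 3 (175 in oral, 324 in nasal), so pairing by number was not shown. Runs were read from column heads of the study's tables.

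The members and the lists were chosen with earlier results of these data known. Members were named in every comparison of compartments (Dlx4 as hardly detected), and from each list at most 3 called genes a direction with the largest differences. Sp7, Runx2 and the 4 uncalled bone-forming genes given for the posterior oral and nasal comparison were named after their values were seen. Some list genes are not reported here. Figures used Python 3.11.15 and matplotlib 3.10.9.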

Additional observations from a re-analysis of the deposited data

Results flagged for a closer look

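Dlx6 in anterior nasal replicate 4, at 5.42 RPKM, stood away from the other 3 anterior nasal libraries, which had 1.74 to 2.26 RPKM. Its gap to the nearest of them took up 0.86 of the range of the group, above the 95% limit of 0.829 for 4 samples. On the log2 scale used for the tests the share was 0.775, below that limit. A limit of this kind is passed by chance in about 1 of 20 groups, and 6 members were examined in this compartment, the only one with enough libraries. The same library had the highest Dlx4 value of the series, 1.58 RPKM, and was sequenced in run 175. Without it the 3 remaining Dlx6 values still lay above all anterior oral ones.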

How the results depend on the processing

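The number of members called between posterior and anterior was 1, and 2 with no filter or another minimum, where Dlx2 was tested too. For oral against nasal in the anterior palate it was 0, and 1 with the run in the fit. In the posterior palate it was 2, falling to 1 with a pseudocount of 0.01, a mean-variance trend, another minimum or all 25 libraries by compartment, and to 0 with no filter or with the run. Between posterior and anterior medial it was 0, and 1 with quantile normalization or with all 25 libraries with or without the run. It was also 1 without the 2 libraries that stood apart, with the same genes tested. In lateral it was 1, and 0 with no filter, the replicate block (adjusted p = 0.0733) or the run. In nasal it was 2, and 1 with a pseudocount of 0.01, quantile normalization, no filter or all 25 libraries with or without the run, and 0 with another minimum. Leaving out 1 library gave 0 to 2 in posterior oral against nasal, 0 to 1 in medial and lateral, and 0 to 2 in nasal, and members could then fall below the minimum. The remaining counts of called members, each under the alternatives run, stayed within 1.5 times. The share of all genes called moved too. With no filter it fell from 1.25% to 0.0532% in posterior oral against nasal and from 3.32% to 2.17% between posterior and anterior. It fell from 1.39% to 0.394% in lateral and from 2.21% to 0.328% in nasal. Shares under the other alternatives are not given here, so the counts above are not particular to the members.

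Of 291 values of single members under the alternatives that keep all replicates or leave out both libraries that stood apart, 262 kept their direction and side of the threshold, 16 lost it, 8 gained it and 5 turned direction. Those that turned were never called: Dlx2 lateral minus medial in the posterior palate with the run (-0.92), Dlx1 there without the libraries that stood apart (0.36), and the change of the Dlx2 oral minus nasal difference with a pseudocount of 1 (0.39), the replicate block (0.52) or the run (0.025). With 1 library left out, the Dlx2 lateral minus medial difference ranged from -0.61 to 0.946 (to 1.11 with the same genes tested) and turned at -0.61 and -0.211, that of Dlx1 ranged from -0.76 to 0.36 and turned at 0.049 and 0.36, and the Dlx2 change ranged from -0.70 to 0.52 and turned at 0.097, 0.112, 0.276 and 0.52. The replicate block gave -3.29 for Dlx5 in anterior oral against nasal (adjusted p = 0.465), where pairing by replicate number was not shown. The block ended no member's call other than that of Dlx1 in lateral. The 9 bone-forming genes called between posterior oral and nasal became 1 with no filter, 4 with all 25 libraries and 2 with the run, and the 7 between posterior and anterior nasal became 3, 5 and 0, and 2 with the block. The cause of these changes was not tested.

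At a median of 3269000 reads, levels of Dlx4 and Dlx6 below 1 RPKM rest on few reads. Runs are spread unevenly over compartments, and the strand of reads in overlapping transcripts is unknown.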
